A study of Mus musculus with 16 samples.

Results

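The Hox11 paralogs Hoxa11, Hoxc11 and Hoxd11, together with Hoxa11os, the transcript made from the opposite strand of the Hoxa11 locus, were followed across the embryonic mouse kidney. Every probe set whose platform annotation gives 1 of these 4 symbols and no other was taken, without regard to its values. This gave 4 of 45101 probe sets, covering 3 of the 4 genes, out of 18193 genes with such a probe set. Hoxa11 (chromosome 6) and Hoxd11 (chromosome 2) were read by 1 probe set each. Hoxa11os (chromosome 6) was read by 2, called here the first (platform suffix _a_at) and the second (suffix _at). No probe set with Hoxc11 as its single symbol was found, so Hoxc11 was not analysed here.

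The samples were 16 arrays of E11.5 mouse embryos in 4 groups, 1 array per sample. Wild-type ureteric bud (UB; 4 arrays, 3 to 9 buds pooled in each) and wild-type metanephric mesenchyme (MM; 3 arrays, each from an individual mesenchyme) were separated by hand after collagenase at 0.5 mg/ml and 37 °C. Mesenchyme of Hoxa11/Hoxd11 double null embryos (5 arrays) and of wild-type embryos (4 arrays, 3 to 4 mesenchymes pooled in each) was cut by laser capture from frozen sections 7 µm thick. The null captures came from sections of urogenital ridges and the wild-type captures from sections of kidney rudiments. The number of null mesenchymes per array was not stated in the labels, nor were strain, litter, the targeted alleles or scan dates. Genotype, source piece and pooling therefore cannot be told apart in the comparison of captures. All RNA went through 2 rounds of amplification before hybridization.

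Hox genes encode homeodomain transcription factors whose order along each cluster follows the body axis in which they act. In the mouse kidney the Hox11 proteins are expressed in the mesenchyme and not in the bud, and act there with Eya1 and Pax2 to switch on Six2, the transcription factor that maintains nephron progenitors, and Gdnf, the ligand that calls the bud into the mesenchyme. Loss of Hoxa11 and Hoxd11 together leaves small kidneys, and loss of all the Hox11 paralogs leaves none. Hoxa11os is a long noncoding RNA, known in the mouse limb from the digit territory, where Hoxa11 itself is not expressed.

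The 2 transcripts of the Hoxa11 locus start 567 bases apart on opposite strands, so that Hoxa11os begins inside the transcribed span of Hoxa11. The 250 bases before each start are shown because both transcripts differed together between the null and the wild-type captures. They are RefSeq sequence of GRCm38.p6, chr6:52245811-52246060 on the minus strand for Hoxa11 and chr6:52244993-52245242 on the plus strand for Hoxa11os. Capitals mark matches, on either strand, to 3 motifs: TTTAC and TTTAT, core letters of posterior Hox sites, and TGACAG, the letters bound by Meis-type cofactors.
Hoxa11: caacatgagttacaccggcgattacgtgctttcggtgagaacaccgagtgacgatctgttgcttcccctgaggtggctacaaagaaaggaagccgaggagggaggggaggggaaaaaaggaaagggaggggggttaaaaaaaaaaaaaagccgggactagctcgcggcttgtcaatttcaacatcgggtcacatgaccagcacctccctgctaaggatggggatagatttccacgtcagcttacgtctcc
Hoxa11os: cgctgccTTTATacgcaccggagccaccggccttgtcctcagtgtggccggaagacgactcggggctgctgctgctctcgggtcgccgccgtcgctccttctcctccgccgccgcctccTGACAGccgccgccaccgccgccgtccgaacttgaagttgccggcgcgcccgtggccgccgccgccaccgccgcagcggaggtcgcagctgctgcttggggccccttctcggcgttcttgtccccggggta
The Hoxa11 window held 0 matches, 13 CG dinucleotides and 52.0% G and C. The Hoxa11os window held 1 TTTAT, 1 TGACAG, 35 CG dinucleotides and 72.8% G and C. Among the 32851 mouse windows of that length, TTTAC was present in 28.3%, TTTAT in 37.3% and TGACAG in 15.9%, and 2.97% held at least as many CG dinucleotides as the Hoxa11os window. The windows of Hoxd11, which was not called between these captures, are not shown. The first held 2 TTTAT matches and the second 0, with 0 of the other motifs in both. A match describes these letters only.

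Values are MAS5 signals, a linear array intensity in arbitrary units, and are compared between groups within a probe set, never between probe sets. Differences are on the log2(signal + 36.3) scale, which understates changes of dim probe sets, with limma's standard error (SE). Calls use limma's adjusted p at a threshold of 0.05. Of the 4 probe sets, 3 passed the filter on low signal in each comparison, and the second Hoxa11os probe set passed in none.

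Hoxa11, a sequence-specific transcription factor and one of the genes targeted in the null embryos, gave high signals on the wild-type mesenchyme arrays and low signals elsewhere. In UB it measured 202.6, 121.9, 108.2 and 123.9 on the 4 arrays, a mean of 139 ± 42.9 (SD, n = 4). In null captures it measured 196.6, 91.8, 136.7, 95.7 and 98.8, a mean of 124 ± 44.5 (SD, n = 5). In wild-type captures it measured 814.3, 656.4, 839.6 and 525.5, a mean of 709 ± 147 (SD, n = 4), and in MM dissected by hand 957.5, 797.9 and 606.6, a mean of 787 ± 176 (SD, n = 3). The UB and null values overlapped each other, the wild-type mesenchyme groups overlapped each other, and no array of the first pair reached any array of the second. Hoxa11 exceeded its array's median signal on 1 of 4 UB arrays and 1 of 5 null arrays, and on each of the 7 wild-type mesenchyme arrays.

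Hoxa11os, read by its first probe set, separated all 4 groups. It measured 45.6, 82.6, 90.1 and 90.8 in UB (77.3 ± 21.4, SD, n = 4). In null captures it measured 337.5, 519.3, 539.4, 166.2 and 131.2 (339 ± 191, SD, n = 5). In wild-type captures it measured 2511.6, 2694.1, 3539.4 and 2259.8 (2751 ± 555, SD, n = 4), and in MM dissected by hand 934.1, 2176.6 and 1229.4 (1447 ± 649, SD, n = 3). No pair of groups next to each other in the order of means overlapped: wild-type captures stood above MM dissected by hand, which stood above null captures, which stood above UB. The null captures were thus low against the wild-type mesenchyme but above their array's median on 5 of 5 arrays, whereas UB exceeded it on 0 of 4.

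The second Hoxa11os probe set was dim everywhere and lay below the array's median on all 16 arrays. It ranged from 2.8 to 15.9 in UB, from 1 to 47.6 in null captures, from 1.5 to 20.9 in wild-type captures and from 3.4 to 17.8 in MM dissected by hand. All 4 groups overlapped, and without the filter limma's adjusted p was 0.764 for UB against MM, 0.833 for null against wild-type captures and 0.939 for captured against hand-dissected MM. The results for Hoxa11os below therefore rest on 1 of its 2 probe sets, and the other lay below the array's median throughout.

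Hoxd11, the Hoxd cluster paralog and the other gene targeted in the null embryos, separated UB from mesenchyme but not null from wild type. It measured 38.9, 2, 24.8 and 37.9 in UB (25.9 ± 17.2, SD, n = 4), below the array's median on each. In null captures it measured 306.4, 447.3, 482.2, 192 and 277.5 (341 ± 121, SD, n = 5). In wild-type captures it measured 586.8, 452.3, 381.8 and 317.8 (435 ± 115, SD, n = 4), and in MM dissected by hand 467.7, 473.3 and 367 (436 ± 59.8, SD, n = 3). The 3 mesenchyme groups overlapped in order of their means, and all their arrays stood above every UB array. The labels do not state where the Hoxa11, Hoxa11os and Hoxd11 probes lie relative to the targeted parts of the genes. A signal from any of these probe sets therefore does not check the genotype.

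**Figure D1:**
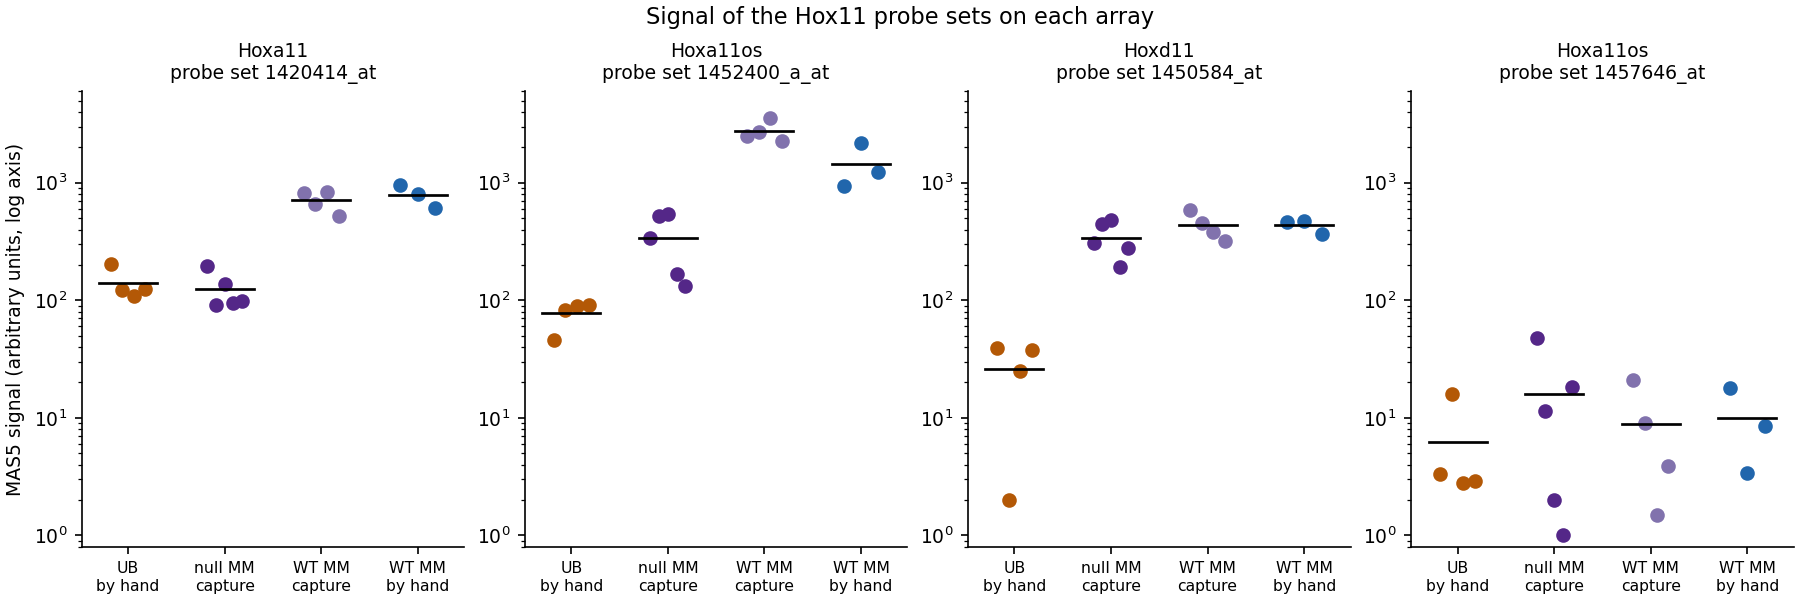
MAS5 signal (log axis) of the 4 probe sets on each array, in the order UB, null capture, wild-type capture and MM dissected by hand; each point is an array and each line a group mean. Hoxa11 was low in UB and null captures, Hoxa11os (first probe set) was lowest in UB and intermediate in null captures, Hoxd11 was low in UB only, and the second Hoxa11os probe set overlapped in all 4 groups.

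The first comparison set UB against MM, both dissected by hand, and asked which structure carries each transcript. All 3 probe sets that passed the filter were called, with no overlap between the groups, and all were lower in UB. Among all tested probe sets 23.9% were called and 32.1% did not overlap, in either direction. The mean Hoxa11 signal was 5.66-fold lower in UB. It exceeded the array's median on 1 of 4 UB arrays, so the size of this fold is uncertain. No fold is given for Hoxa11os and Hoxd11, which lay below the array's median on all 4 UB arrays. On the log2 scale Hoxa11os differed by -3.64 ± 0.31 (SE; 95% interval -4.32 to -2.96; limma adjusted p = 5.41e-06). Hoxd11 differed by -2.97 ± 0.33 (-3.68 to -2.25; limma adjusted p = 3.95e-05), and Hoxa11 by -2.24 ± 0.27 (-2.82 to -1.65; limma adjusted p = 7.91e-05). Under other offsets and settings the difference ran from -4.54 to -2.09 for Hoxd11 and from -4.20 to -3.05 for Hoxa11os. The median over all tested probe sets was 0.02. The exact permutation test (two-sided) gave p = 0.0286 for each, the smallest that 4 against 3 arrays allow.

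The labels of these groups fitted their markers: 9 of 9 tested UB markers were higher in UB, while 8 of 9 nephron progenitor markers and 6 of 6 stromal markers were lower. The exception was Cited1, higher in UB by 1.70 ± 0.38 (SE; limma adjusted p = 0.00629). In such bulk samples fewer cells of a type and less RNA per cell cannot be told apart. The ratio of 3' to 5' probe set signals, which rises as RNA is shortened, was read for Gapdh and Actb. For Gapdh it ran from 6.53 to 12.2 in UB and from 22.1 to 69.3 in MM. For Actb it ran from 10.9 to 16.3 in UB and from 11.1 to 17.9 in MM, so that only the Gapdh ranges lay apart. The 5 macrophage markers summed to 555 to 688 in UB and 3846 to 10950 in MM, with 3 of 4 tested called lower. Endothelial markers were lower for 5 of 5 tested (median -2.50) and erythroid markers for 3 of 4 (median -2.07). The part of these ratios and of these markers in the differences was not tested.

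The second comparison set null against wild-type captures and asked how each transcript stood when Hoxa11 and Hoxd11 are targeted. Hoxa11os and Hoxa11 were lower in null captures, and Hoxd11 did not pass the test. Of the 3 probe sets, 2 were called lower with no overlap, beside 1.17% of all tested probe sets called lower and 6.14% that did not overlap in that direction. The mean signal of Hoxa11os was 8.12-fold lower in null captures, a log2 difference of -3.05 ± 0.41 (SE; 95% interval -3.94 to -2.16; limma adjusted p = 0.00677). Hoxa11os overlaps the targeted Hoxa11 gene, and whether the targeted allele alters the sequence read by its probes was not tested. The mean signal of Hoxa11 was 5.72-fold lower, a log2 difference of -2.23 ± 0.34 (-2.98 to -1.49; limma adjusted p = 0.0114). Hoxa11 exceeded the array's median on 1 of 5 null captures, so the size of its fold is uncertain. Hoxd11 differed by -0.35 ± 0.35 (-1.13 to 0.43; limma adjusted p = 0.635), an interval that leaves room for a difference in either direction. From the most negative of 23387 tested differences, Hoxa11os ranked 43 and Hoxa11 219. The exact permutation test (two-sided) gave p = 0.00794 for Hoxa11 and for Hoxa11os, the smallest that 5 against 4 arrays allow, and p = 0.254 for Hoxd11.

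The median over all tested probe sets was -0.15 in this comparison and 0.15 after centring each array on its median. With that centring the differences were -2.75 for Hoxa11os, -1.93 for Hoxa11 and -0.05 for Hoxd11. The Hoxa11 call was not stable against leaving out single wild-type arrays: limma's adjusted p was 0.0562 without capture 1, 0.0597 without capture 2 and 0.0683 without capture 3, with differences of -2.16, -2.26 and -2.15.

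**Figure D2:**
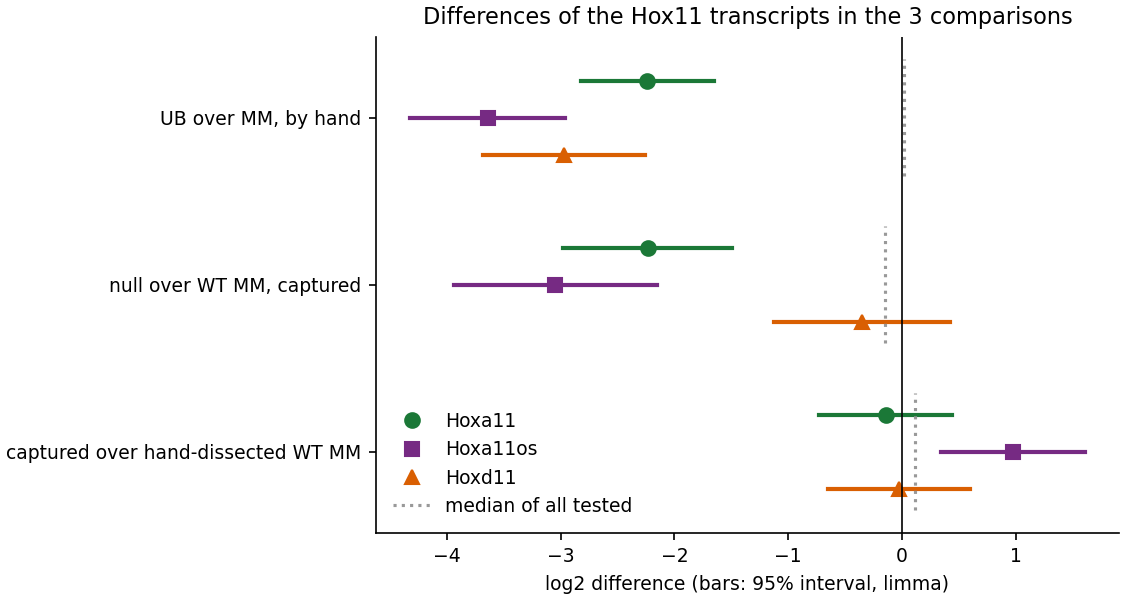
Log2 differences of Hoxa11, Hoxa11os (first probe set) and Hoxd11 with their 95% intervals from limma, for UB over MM, null over wild-type captures, and captured over hand-dissected wild-type MM; the dotted line is the median of all tested probe sets. Hoxd11 lay at -2.97 in the first comparison and at -0.35 in the second, while Hoxa11 lay at -2.24 and -2.23.

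Since Hoxa11 and Hoxd11 were read on the same arrays, their difference within each array shows whether one moved more than the other. Log2 Hoxa11 less log2 Hoxd11 was -0.56, -1.92, -1.58, -0.79 and -1.22 on the null captures, against 0.45, 0.50, 1.07 and 0.67 on the wild-type captures. No null array reached any wild-type array. The zero of this measure has no meaning, since it sets different probe sets against each other, and only its shift between groups was read. The means were -1.21 ± 0.56 (SD, n = 5) and 0.67 ± 0.28 (SD, n = 4), so that the Hoxa11 signal fell by 1.88 more than the Hoxd11 signal on this scale. The exact permutation test gave p = 0.00794 (two-sided), and 0.0238 adjusted over the 3 within-array tests made. Both genes are targeted in the null embryos. The part of the probe positions, which the labels do not state, in this shift was not tested.

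The same measure was taken between the transcripts of the Hoxa11 locus. Log2 Hoxa11os less log2 Hoxa11 averaged 1.09 ± 0.79 (SD, n = 5) in null captures and 1.91 ± 0.22 (SD, n = 4) in wild-type captures. The difference of -0.81 did not pass (exact permutation p = 0.119, two-sided, adjusted p = 0.119), so a larger fall of Hoxa11os than of Hoxa11 was not established. Between the hand-dissected tissues the measure was -1.54, -0.41, -0.19 and -0.33 in UB, against -0.03, 1.41 and 0.98 in MM. The UB mean was -0.62 ± 0.62 (SD, n = 4) and the MM mean 0.78 ± 0.74 (SD, n = 3), a difference of -1.40 (exact permutation p = 0.0286, two-sided, the smallest possible; adjusted p = 0.0429). Both UB signals were near or below the array's median, where the offset flattens differences.

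**Figure D3:**
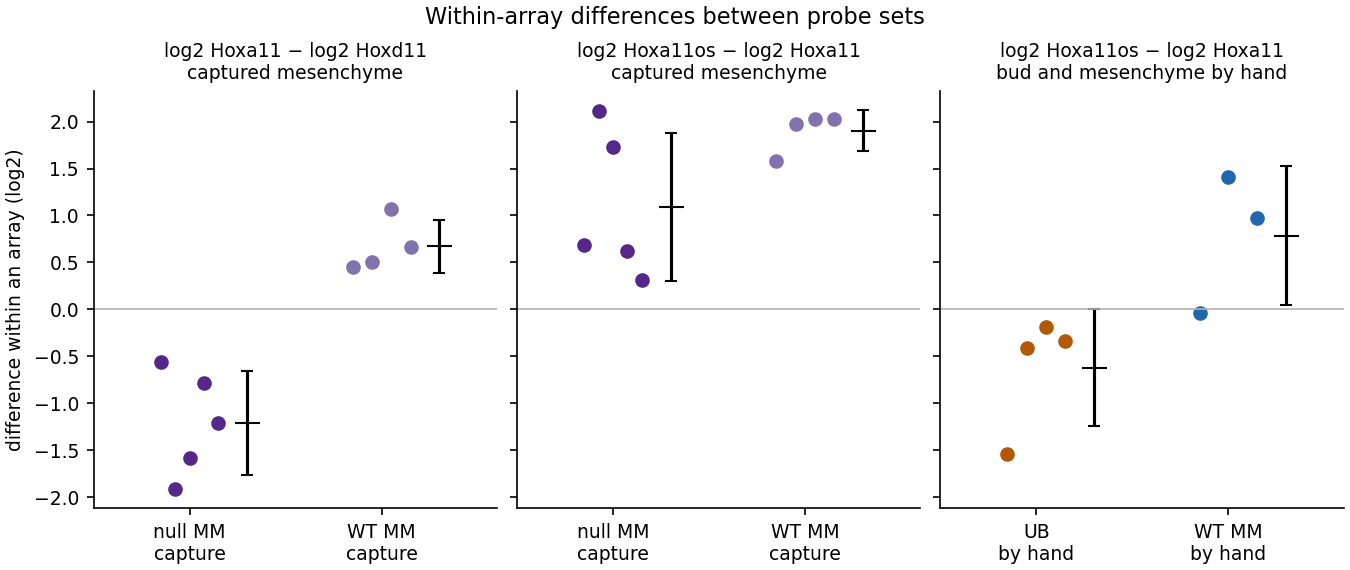
Within-array log2 differences on each array (points) with group mean and SD (bars): Hoxa11 less Hoxd11 and Hoxa11os less Hoxa11 in null and wild-type captures, and Hoxa11os less Hoxa11 in UB and MM dissected by hand. For Hoxa11 less Hoxd11 the null arrays ran from -1.92 to -0.56 and the wild-type arrays from 0.45 to 1.07.

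The capture arrays differed in what else they held. The summed signal of 10 nephron progenitor markers was 54032, 90636, 95053, 20741 and 42669 on null captures 1 to 5, against 75268, 68223, 49529 and 39179 on wild-type captures 1 to 4. Hoxd11 had the same order as this sum within both groups, highest on null capture 3 and wild-type capture 1 and lowest on capture 4 of each. Hoxa11 did not have that order in either group. Hoxa11os had the order of the sum within the null captures, except that captures 4 and 5 changed places. Within the wild-type captures it was highest on capture 3, where the sum was the third highest of 4.

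Markers of some neighbouring tissues stood high on single null captures, and cloaca and tail markers on some wild-type captures. The 4 cloaca and tail markers summed to 127 to 1402 on null captures, against 705, 1582, 11191 and 7676 on wild-type captures 1 to 4. The 4 muscle markers summed to 66020 on null capture 4, against 887 to 8783 on the other null captures and 994 to 6269 on wild-type captures. The 5 gonad and coelomic markers summed to 28732 on null capture 5, against 183 to 481 on the other null captures and 272 to 780 on wild-type captures. Neuronal markers summed to 2203 to 17981 on null captures and 1372 to 3637 on wild-type captures, and 1 of 3 tested was called higher in null. Macrophage markers summed to 948 to 12910 on null captures and 10425 to 19179 on wild-type captures. Of these 5 markers 1 was called lower in null and 5 had an unadjusted p below 0.05, with a median of -2.35. Bud markers summed to 12077 to 46577 on null captures and 10268 to 61311 on wild-type captures. Endothelial and stromal markers had median differences of -0.86 and -0.51 in null, with 0 of 6 called in each. With null captures 4 and 5 left out, an alternative chosen after seeing the data, Hoxa11os differed by -2.48 (limma adjusted p = 0.00699), Hoxa11 by -2.09 (0.0314) and Hoxd11 by -0.06 (0.943). The Gapdh ratio ran from 18.4 to 26.3 in null captures and from 14.3 to 22.9 in wild-type captures. The Actb ratio ran from 17.5 to 27.6 in null captures and from 14.8 to 20.9 in wild-type captures. The part of these ratios and of these marker signals in the differences was not tested.

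**Figure D4:**
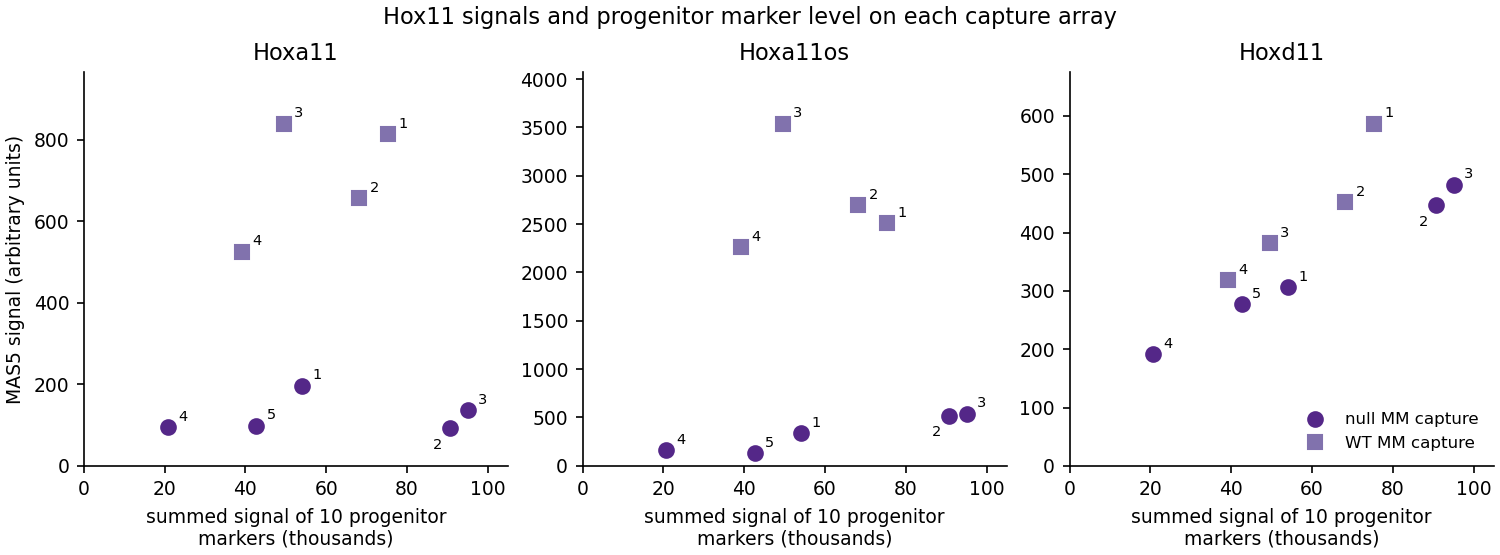
MAS5 signal of Hoxa11, Hoxa11os (first probe set) and Hoxd11 against the summed signal of 10 nephron progenitor markers on each capture array, numbered by replicate (circles null, squares wild type). Hoxd11 was ordered as the marker sum within each group. For Hoxa11 and Hoxa11os each null array lay below every wild-type array. The wild-type sums ran from 39179 to 75268, and null captures 2, 3 and 4 lay outside that range.

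The third comparison set captured against hand-dissected wild-type MM, which differ in the way of isolation and in pooling. It shares the wild-type captures with the second comparison and the hand-dissected MM with the first. Hoxa11os was higher in the captures by 0.98 ± 0.29 on the log2 scale (SE; 95% interval 0.35 to 1.61; limma adjusted p = 0.0295), a mean signal 1.90-fold higher with no overlap. This was 1 of 3 probe sets, beside 16.3% of all tested probe sets called higher and 21.9% not overlapping in that direction, so it does not set the Hox11 transcripts apart from the rest of the array. Hoxa11 differed by -0.14 ± 0.27 (-0.73 to 0.44; limma adjusted p = 0.728) and Hoxd11 by -0.03 ± 0.28 (-0.65 to 0.60; limma adjusted p = 0.956). The Hoxa11os call was lost under several alternatives: its difference was 0.78 (limma adjusted p = 0.0765) with median centring, and 0.72 (0.103) without hand-dissected MM 5. In the same comparison 8 of 9 tested bud markers were higher in the captures, with sums of 10268 to 61311 in captures and 3059 to 3349 in hand-dissected MM. Macrophage markers summed to 10425 to 19179 in captures and 3846 to 10950 in hand-dissected MM, with 2 of 5 called higher (median 1.26). Erythroid markers summed to 83488 to 148808 in captures and 60789 to 68501 in hand-dissected MM, with 3 of 4 tested called higher (median 1.08). Their part in the Hoxa11os difference was not tested.

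Genes that work with the Hox11 proteins were taken from a list of 10 nephron progenitor genes, of which 8 had a probe set with a single symbol. Among all 23851 tested probe sets, 2749 were called lower in UB than in MM. Of the progenitor genes, 6 of 7 tested were called lower in UB and none was called higher at the brightest probe set of each gene. Their median was -5.17. Another probe set of Six4, the seventh gene, was higher by 0.71 (limma adjusted p = 0.0383). The largest differences were -6.18 ± 0.37 (SE) for Eya1, the Hox11 partner, -6.13 ± 0.43 for Gdnf, -5.43 ± 0.22 for Itga8, an integrin of the mesenchyme, and -5.17 ± 0.22 for Six2, each with a limma adjusted p of at most 1.02e-06. Among all tested probe sets, 1.76% were called in either direction between null and wild-type captures. In null captures 0 of 8 tested progenitor genes passed limma's test and 0 had an unadjusted p below 0.05, with a median of -0.44 beside -0.15 for all tested probe sets. Six2 measured 3339 ± 3268 in null captures and 4712 ± 1544 in wild-type captures (SD, n = 5 and 4), a log2 difference of -1.01 ± 0.63 (limma adjusted p = 0.421). Wild-type captures were themselves low in Six2 against hand-dissected MM, at 21975 ± 1549 (SD), by -2.28 ± 0.25 (limma adjusted p = 0.000345). Gdnf measured 16608 ± 12321 in null captures and 9437 ± 1559 in wild-type captures, a log2 difference of 0.32 ± 0.61 (limma adjusted p = 0.814). Six2 and Gdnf, both described as regulated by Hox11 proteins in the mouse kidney, thus had a wide spread between null arrays.

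The TALE homeodomain proteins Meis, Pbx and Pknox bind DNA beside Hox proteins. Of 8 tested, 5 were called lower in UB than in MM and none was called higher. Among all 23851 tested probe sets, 2749 were called lower. The 5 were Meis1 at -6.13 ± 0.28 (SE), Meis2 at -5.69 ± 0.25, Pknox2 at -3.80 ± 0.27, Meis3 at -1.23 ± 0.33, and Pbx3. The other 3 were higher in UB without being called. Pbx4 differed by 1.14 ± 0.39 (limma adjusted p = 0.0527) with no overlap, Pknox1 by 0.78 ± 0.29 (0.0751) and Pbx2 by 0.44 ± 0.23 (0.201). In null captures 0 of 7 tested passed limma's test at the brightest probe set of each gene and 0 had an unadjusted p below 0.05, with a median of 0.01. The probe sets of Meis2 disagreed: the brightest differed by 0.01 ± 0.16, and another, called lower in null, differed by -1.31 ± 0.17 (limma adjusted p = 0.00543).

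The neighbours of the 3 loci in the Hoxa, Hoxc and Hoxd clusters were read for how far the pattern of the members was shared along the chromosome. Hoxa11 lies between Hoxa10 and Hoxa13, and Hoxd11 between Hoxd12 and Hoxd10. On the posterior side of the loci only Hoxd13 was tested. Hoxa13, Hoxc13 and Hoxd12 did not pass the filter, and Hoxc12 had no probe set with a single symbol. In UB, 6 of 7 tested neighbours were called lower than in MM, beside 2749 of all 23851 tested probe sets. The largest differences were Hoxc10 at -6.44 ± 0.24 (SE), Hoxd10 at -6.30 ± 0.37, Hoxa10 at -5.62 ± 0.36 and Hoxa9 at -5.22 ± 0.35. Hoxd9 did not pass, at 0.78 ± 0.29 (limma adjusted p = 0.0696), though its UB arrays all stood above its MM arrays. In null captures 0 of 7 tested passed limma's test, and 2 had an unadjusted p below 0.05, beside 18.7% of all tested probe sets. Hoxa10, next to Hoxa11, differed by -0.48 ± 0.30 (limma adjusted p = 0.421), and Hoxd10, next to Hoxd11, by -0.53 ± 0.31 (0.374). The 2 with an unadjusted p below 0.05, named after their values were seen, were Hoxd13 and Hoxa9. Hoxd13, a more posterior gene of the Hoxd cluster, differed by -3.58 ± 1.06 (limma adjusted p = 0.110) with overlapping arrays. It is also a cloaca and tail marker, at 12.7 to 1066 on null captures and 498 to 11046 on wild-type captures. The part of such tissue in this difference was not tested. Hoxa9 differed by 0.39 ± 0.12 (limma adjusted p = 0.109) with no overlap.

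**Figure D5:**
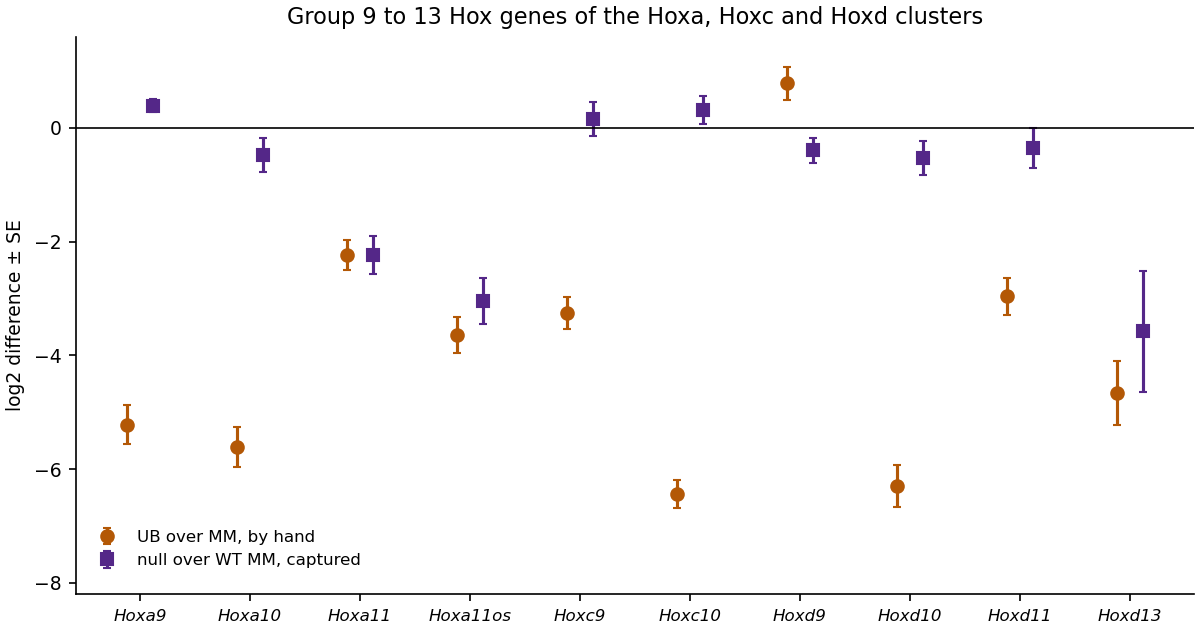
Log2 differences with SE of the tested neighbours and members in the Hoxa, Hoxc and Hoxd clusters, for UB over MM (circles) and null over wild-type captures (squares). In UB all but Hoxd9 lay below -2, and in null captures Hoxa10 at -0.48 stood beside Hoxa11 at -2.23 and Hoxa11os at -3.05.

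Over the 16 arrays, which share groups and laboratory handling, the genes whose log2 values followed each member most closely were listed as a description. For Hoxa11 they were Eya4, Phldb2, Ccs, Mphosph9 and Qk (Pearson r of 0.911, 0.910, 0.906, 0.904 and 0.899, n = 16). Eya4, a transcriptional coactivator of the Eya family, measured 15.8 ± 15.8 (SD, as for the genes below) in UB, 22.3 ± 11.7 in null captures, 173 ± 75.7 in wild-type captures and 382 ± 65.8 in MM dissected by hand. For Hoxa11os they were Marchf3, Lbx2, Laptm5, Tlcd2 and Iigp1 (r of 0.950, 0.945, 0.939, 0.928 and 0.920). Laptm5, a lysosomal membrane protein of blood cells, is also among the macrophage markers above. It measured 107 ± 33.2 in UB, 938 ± 570 in null captures, 4416 ± 2020 in wild-type captures and 2862 ± 1244 in MM dissected by hand. For Hoxd11 they were Tpm2, Foxd1, Syt7, Cd83 and Hoxd10 (r of 0.983, 0.982, 0.980, 0.978 and 0.976). Foxd1, the transcription factor of renal stroma, measured 92.9 ± 50.3 in UB, 8708 ± 4145 in null captures, 10605 ± 2784 in wild-type captures and 12067 ± 2935 in MM dissected by hand. Between the members, Hoxa11 correlated with Hoxa11os at 0.847 and with Hoxd11 at 0.562, and Hoxa11os with Hoxd11 at 0.801. The arrays fall into 4 groups, whose means enter each coefficient.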

How the data were processed

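Arrays (Affymetrix MOE430_v2) measured RNA after a 2-round amplification, per the labels' protocols. The deposited values are linear MAS5 intensity signals, per the submitters' processing notes; the authors had scaled each array so that its mean, after trimming 2% of values at each tail, lay at 1500, as read from the values. Array medians ran from 112.7 to 209.2, and 0 pairs of arrays were identical. Arrays give no read depth, and their number limits the precision. Series text describes replicates as separate embryos. No slide or scan date was stated, and no batch could be examined.

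After removal of 64 control probe sets, 45037 remained, of which 34945 had 1 gene symbol in the platform annotation, 932 several and 9160 none. Signals were converted to log2(signal + 36.3), the offset being the 25th percentile of all values. A probe set entered a comparison when its signal beat the array median on a number of arrays no smaller than the size of the smaller group. Comparisons used limma 3.58.1 (lmFit, eBayes with intensity trend; R 4.3.3), each on its own arrays, and Benjamini-Hochberg adjusted p values over all probe sets that entered. The fit was tested on simulated data. Single values were tested by exact permutation of arrays. Python 3.11.15, pandas 2.3.3, numpy 2.4.6 and matplotlib 3.10.9 handled tables and figures.

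Named were every member probe set, of each gene list up to 4 genes with the largest difference past the threshold and, in the null comparison, each past it, and the 5 genes most correlated with each member; genes read by several probe sets were taken at the brightest. Outside this rule, and chosen after their values were seen, are Six2, Gdnf, Hoxa9, Hoxa10, Hoxd10, Hoxd13 and Meis2 in the null comparison. In the bud they are Six4, Pbx2, Pbx3, Pbx4, Pknox1, Hoxd9 and Cited1. The members and gene lists were chosen with earlier results of these data known. Strand handling of the labelled RNA and probe positions were not used here, so whether Hoxa11 and Hoxa11os probes cross-read was not tested. Alternatives covered the offset, a floor, quantile normalization, median centring, the filter, a pooled fit, the trend, array weights, the replicate number as a block and leaving out each array.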

Additional observations from a re-analysis of the deposited data

Results flagged for a closer look

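In all, 12 groups of 4 or 5 arrays were tested on each of 2 scales against Dixon's 95% critical value for the group's size. Of their values 3, on 2 arrays, stood apart from the others of their group by more than that value. All 3 lay in groups of 4 arrays, where it is 0.829. Chance gives about 1 in 20 groups such an array. UB replicate 1 was lowest for Hoxa11os (first probe set), at a signal of 45.6 against 82.6 to 90.8 on the other UB arrays (gap over range 0.848, log2 scale). The same array was highest for Hoxa11, at 202.6 against 108.2 to 123.9 (0.834, signal scale). UB replicate 2 was highest for the second, dim Hoxa11os probe set, at 15.9 against 2.8 to 3.3 (0.956, log2 scale).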

How the results depend on the processing

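In UB against MM, 3 of 3 probe sets were called lower under each of 17 alternatives, with differences of -2.52 to -1.89 for Hoxa11, -4.20 to -3.05 for Hoxa11os and -4.54 to -2.09 for Hoxd11. In null against wild-type captures, Hoxa11os passed under all 21 alternatives (-3.25 to -2.48, adjusted p up to 0.0410), and Hoxd11 under none (-0.48 to -0.05). The count of called members was 1 in place of 2 with the replicate number as a replicate block, where Hoxa11 was -2.18 (limma adjusted p = 0.0846). It was 1 to 2 on leaving out single arrays, with Hoxa11 at -2.38 to -2.15. The labels do not state whether the numbers pair these samples. Same-numbered captures correlated in their deviations at -0.05 to 0.07, which does not settle whether they were paired. With that replicate block the within-array difference of Hoxa11 and Hoxd11 was -1.88 (exact permutation p = 0.125, the smallest possible with 4 pairs), and it was -2.05 to -1.71 on leaving out single arrays. The corresponding difference of Hoxa11os and Hoxa11 was -0.95 (exact permutation p = 0.0397) with an offset of 100, and -0.62 (p = 0.25) with the replicate block. With the second, dim Hoxa11os probe set in place of the first it was 2.40 for the captures and 2.12 for UB against MM; that probe set lay below the array's median on all 16 arrays. On leaving out single arrays it was -1.07 to -0.62 for the captures and -1.81 to -1.09 for UB against MM, where so few arrays cannot reach an exact p of 0.05.

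In captured against hand-dissected MM the count of called members was 0 in place of 1 with median centring (Hoxa11os 0.78), with all 16 arrays in 1 fit (0.98) and without the intensity trend (0.98), and 0 to 1 on leaving out single arrays (Hoxa11os 0.72 to 1.31). Uncalled differences turned sign with array weights, to 0.03 for Hoxa11 and 0.06 for Hoxd11, and on leaving out single arrays, over -0.31 to 0.00 and -0.17 to 0.10. The cause of these changes was not tested.

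Over all probe sets the number called ran from 3580 (all 16 arrays in 1 fit) to 10132 (array weights) around 5701 in UB against MM, from 53 (replicate block) to 1809 (without null capture 1) around 411 in the captures, and from 2811 (all 16 arrays in 1 fit) to 8073 (array weights) around 5866 in captured against hand-dissected MM. Median centring turned the split of higher and lower calls to 4015 and 2204 from 2952 and 2749 in UB against MM, to 136 and 71 from 138 and 273 in the captures, and to 2435 and 3207 from 3857 and 2009 in captured against hand-dissected MM, where quantile normalization gave 2925 and 2552.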
